A study of Mus musculus with 11 samples.

Results

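The Gnas locus was read here as the gene bodies of Gnas (chr2:174284320-174346744) and Gnasas1 (chr2:174281237-174295436), the antisense transcript also written Nespas, with 5 kb on both sides, on the mouse mm10 build. The stretch chr2:174276237-174351744 is 75508 bp long and holds 1561 CpGs. It gave 75 windows of 1 kb with at least 1 CpG, of 2526718 such windows on chromosomes 1 to 19 and X. The locus was selected on measured values, the difference in methylation between its H3K9me3 and H3K4me1 calls, so that contrast is described below and not tested. The cells were E14 mouse embryonic stem cells (129/Ola background), an established line grown with serum and leukemia inhibitory factor, with no genotype or treatment differing between samples. CUT&Tag-BS steers a Tn5 transposase to a histone mark with an antibody and then reads DNA methylation on the released fragments by bisulfite sequencing. There were 8 bisulfite samples, each called a library below: run 1 (35 bp reads) and run 2 (75 bp reads) of H3K4me1 and of H3K9me3 from 250000 cells, and 4 H3K27me3 libraries from 4000, 20000, 100000 and 250000 cells. Each mark also had 1 library from 250000 cells made without bisulfite, which gives peaks and no methylation.

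Gnas is an imprinted locus, where the parental copies carry different DNA methylation and different transcripts are made from each. Along the sense strand its promoters follow in the order Nesp (neuroendocrine secretory protein, expressed from the maternal copy), Gnasxl (the long G protein subunit XLαs, paternal), exon 1A (a noncoding first exon, paternal) and the first exon of Gsα, the stimulatory G protein subunit that couples receptors to adenylyl cyclase. Gnasas1 starts close to Gnasxl and runs antisense across Nesp. The regions at Gnasas1 and Gnasxl and at exon 1A are known to be methylated in the egg, and Nesp gains methylation on the paternal copy later in development. H3K4me1 marks enhancers and the flanks of promoters, H3K9me3 marks heterochromatin and the methylated copy of imprinted control regions, and H3K27me3 is deposited by Polycomb complexes, often at CpG islands without DNA methylation.

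The promoters of Gnas in RefSeq (GRCm38.p6) are shown because H3K4me1 and H3K27me3 peaks lie over or beside them. Their CpGs were read as low in methylation by H3K27me3 and, at Nesp and exon 1A, by H3K4me1. The Gsα promoter had too few H3K4me1 calls to be read. Each run covers 250 bases before to 50 bases after the start, on the plus strand, with every CpG in capitals. RefSeq lists 4 starts, of which a pair lies within the same exon 1A island and shares most of its sequence, so 3 are printed. They are named from the known order of the promoters along Gnas. Gnasas1 had no entry in the promoter table.
Nesp start, chr2:174284070-174284369: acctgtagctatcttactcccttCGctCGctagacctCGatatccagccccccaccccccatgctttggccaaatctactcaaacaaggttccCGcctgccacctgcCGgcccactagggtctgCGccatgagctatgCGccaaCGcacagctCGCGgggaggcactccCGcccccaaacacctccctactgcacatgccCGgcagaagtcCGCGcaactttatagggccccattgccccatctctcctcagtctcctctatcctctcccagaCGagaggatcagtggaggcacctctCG
Exon 1A start, chr2:174327499-174327798: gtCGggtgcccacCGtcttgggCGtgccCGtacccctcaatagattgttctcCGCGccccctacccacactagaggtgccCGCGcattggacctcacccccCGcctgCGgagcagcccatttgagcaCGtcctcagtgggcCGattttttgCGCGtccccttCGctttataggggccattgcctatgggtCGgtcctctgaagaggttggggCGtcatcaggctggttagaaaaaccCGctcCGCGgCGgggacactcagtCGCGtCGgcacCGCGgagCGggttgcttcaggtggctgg
Gsα start, chr2:174329756-174330055: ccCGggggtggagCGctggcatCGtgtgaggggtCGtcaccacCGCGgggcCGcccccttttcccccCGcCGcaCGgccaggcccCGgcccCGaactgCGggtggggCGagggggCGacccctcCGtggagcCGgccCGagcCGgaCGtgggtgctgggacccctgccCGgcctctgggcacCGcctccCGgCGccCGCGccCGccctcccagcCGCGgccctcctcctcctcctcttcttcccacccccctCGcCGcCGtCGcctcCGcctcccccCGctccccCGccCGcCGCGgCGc
The Nesp window has 16 CpGs, the exon 1A window 27 and the Gsα window 40, against a median of 7 over 32851 RefSeq promoters of the same length. Of all those promoters, 33% hold at least as many CpGs as the Nesp window, 15.5% as many as the exon 1A window and 3.91% as many as the Gsα window. The motif TGCCGC, searched on both strands as the core bound by the zinc finger protein ZFP57 at imprinted regions, was not found in these letters. It occurs in 11.6% of all the promoters, so most promoters lack it. The region at Gnasas1 and Gnasxl, which had no entry among the promoters, was not searched.

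Across the whole locus H3K9me3 calls were mostly methylated, and H3K4me1 and H3K27me3 calls were mostly not. In H3K9me3 calls 83.7% were methylated in run 1 (411 of 491 calls, 95% Wilson interval 80.2 to 86.7%) and 83.1% in run 2 (1084 of 1305, interval 80.9 to 85.0%). In H3K4me1 calls the level was 13.9% in run 1 (147 of 1057, interval 12.0 to 16.1%) and 13.2% in run 2 (293 of 2224, interval 11.8 to 14.6%). The H3K27me3 calls were low as well, with 16.25% at 4000 cells (13 of 80, interval 9.75 to 25.8%), 12.6% at 20000 (256 of 2032), 11.7% at 100000 (1153 of 9835) and 11.4% at 250000 (1747 of 15276, interval 10.9 to 12.0%). As an unweighted mean over CpGs, which gives thinly read CpGs the same weight, H3K27me3 read 19.4% at 100000 cells and 22.6% at 250000, above the 15.8% and 15.2% of the H3K4me1 runs. Both H3K9me3 runs lay far above every H3K4me1 and H3K27me3 library by either measure. Over all chromosomes the same libraries read 81.2% and 81.9% for H3K9me3, 32.4% and 32.5% for H3K4me1, and from 32.5 to 33.4% for H3K27me3, so the locus was below the library level for H3K4me1 and H3K27me3. Intervals cover counting error only, since amplified copies and calls on the same fragment are not independent.

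The depth differed between marks and sets how firmly each level can be read. The libraries held from 377316 calls (H3K27me3, 4000 cells) to 37159887 calls (H3K27me3, 250000 cells). The 250000-cell H3K27me3 library called 75.0% of the CpGs of the locus, H3K9me3 run 2 called 32.1% and the 4000-cell library 4.61%. Runs 1 and 2 of a mark were taken as repeat sequencing of the same material and counted as 1 value, which leaves 6 separate bisulfite preparations: where both runs had exactly 1 call at a CpG, the call was identical at 97.6% of 558920 CpGs for H3K4me1 and 95.9% of 482946 for H3K9me3. For CpGs called 2 times within run 2 the shares were 77.4% and 83.5%. At the locus the shares between runs were 96.6% of 89 CpGs for H3K4me1 and 86.1% of 36 for H3K9me3, and those within run 2 were 82.7% of 173 and 83.9% of 112. The few H3K9me3 CpGs of the locus thus did not separate the cases, and the treatment of its runs rests on the genome. No label names separate cultures, so spread between runs may be technical. H3K4me1 peaks overlapped the gene body of 5 of 7 listed genes of embryonic stem cells, among them Pou5f1 and Nanog (not Sox2 or Klf4). They also overlapped all 4 endoderm and all 3 neural genes listed, so they did not separate the cell types. Sequence beside the genes was not read for this. H3K27me3 peaks overlapped 1 of the 7 stem cell genes (Esrrb), all 4 endoderm genes and all 3 neural genes, and H3K9me3 peaks overlapped 0 of the 14. Peaks over a gene do not measure its expression.

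The authors' peak lists placed the marks in partly overlapping blocks. H3K27me3 lay in 3 blocks of the list that unites its libraries. The first was chr2:174283893-174287798 over the Nesp start (3906 bp). The others were chr2:174296290-174301914, to the right of the Gnasas1 start (5625 bp), and chr2:174321908-174331958, over exon 1A and the Gsα start (10051 bp). H3K9me3 filled 1 broad peak of 13412 bp, chr2:174289261-174302672. It covers the right-hand end of Gnasas1, where this antisense gene starts, and runs over the middle H3K27me3 block. Only 0.913% of the 21460 united H3K9me3 peaks are as wide, where the median width is 1573 bp. The bounds of this broad peak are those of run 2. Run 1 called chr2:174292090-174296596 and chr2:174299892-174301252, with a gap between them. The library without bisulfite called chr2:174292589-174301406 in this stretch. A second H3K9me3 peak of 1001 bp, chr2:174303458-174304458, came from the library without bisulfite. H3K4me1 had 5 united peaks: a broad one over Nesp, chr2:174283241-174290526 (7286 bp, a width reached by 3.51% of that list), chr2:174292125-174293367, chr2:174327125-174329503 at exon 1A, and the narrow flanking peaks chr2:174279244-174279874 and chr2:174334196-174334819. In the united lists the H3K27me3 peak over Nesp lies wholly inside an H3K4me1 peak, and the H3K4me1 peak at exon 1A wholly inside an H3K27me3 peak. The middle H3K27me3 peak lies wholly inside the broad H3K9me3 peak of the united list and run 2, but not inside those of run 1 or the control.

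**Figure D1:**
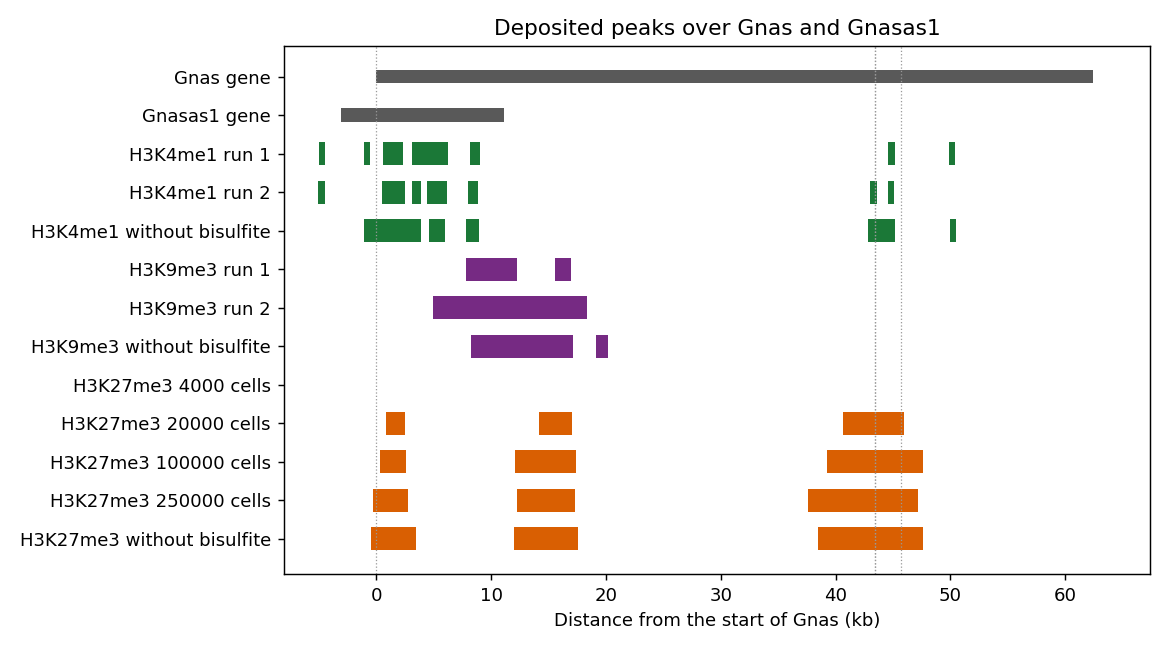
Deposited peaks of each library as bars, against distance from the annotated start of Gnas in kb; the grey bars are the genes, the dotted lines the RefSeq starts of Gnas, and colours the marks. H3K9me3 peaks stand between Nesp and exon 1A, H3K27me3 peaks stand in 3 blocks except at 4000 cells, where the row is empty, and most H3K4me1 peaks gather around Nesp and exon 1A.

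The bisulfite lists held fewer bases of the locus in peaks than the control of their mark, except H3K9me3 run 2. For H3K27me3, 0 bases of the locus were in peaks at 4000 cells, 9771 at 20000, 15859 at 100000 and 17717 at 250000, against 18693 without bisulfite. The libraries from 20000, 100000 and 250000 cells each overlapped all 3 peaks of the control, and the 4000-cell library overlapped none. For H3K4me1 the runs had 7950 and 7192 bases against 10295 in the control, and overlapped 5 and 4 of its 5 peaks. For H3K9me3, run 1 had 5868 bases and run 2 had 13412, on either side of the 9819 bases of the control, and each run overlapped 1 of its 2 peaks. The H3K9me3 runs thus differed by more than either differed from the control, and run 2, with 6301370 calls, was read more deeply than run 1, with 1997957; the part of depth in that difference was not tested.

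The Nesp island was read as low in methylation under every mark. Over the united H3K27me3 peak there, H3K4me1 read 7.97% methylated over 364 calls (run 1) and 6.96% over 747 (run 2). H3K27me3 calls read 5.86% of 239 at 20000 cells, 3.59% of 781 at 100000 and 2.92% of 1300 at 250000, and the 4000-cell library had 0 calls. The few H3K9me3 calls read 5.26% of 19 and 5.08% of 59. The 1-kb window with the most H3K4me1 calls at the locus, chr2:174286001-174287000, lies in this island: 12.2% over 147 calls (run 1) and 9.72% over 288 (run 2), a depth that 0.0904% and 0.0875% of all windows reach. Of the 38 CpGs of the H3K27me3 peak with at least 10 calls at 250000 cells, 37 were under 20%. In the printed Nesp promoter, H3K4me1 calls read 5% of 20 and 5% of 60, and H3K27me3 calls at 250000 cells read 0 of 41, which allows a level of up to 7.32%.

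To the right of Nesp the calls of the marks parted. In the window chr2:174287001-174288000 all were low: H3K9me3 read 8.33% of 12 calls and 5.56% of 18, H3K4me1 read 1.45% of 69 and 1.89% of 159, and H3K27me3 at 250000 cells read 0 of 87, which allows up to 3.45%. In the window chr2:174289001-174290000, where the broad H3K9me3 peak begins, H3K9me3 run 2 read 85.7% of 42 calls and H3K4me1 read 22.5% of 40 and 34.7% of 95. H3K4me1 was not low in the next window, chr2:174290001-174291000, with 83.3% of 6 calls and 69.2% of 13. H3K9me3 read 1 of 1 and 7 of 7 there. Where the united H3K4me1 and H3K9me3 peaks overlap, chr2:174289261-174290526, H3K4me1 read 23.1% of 13 and 45.3% of 53. In the window chr2:174292001-174293000, inside Gnasas1, H3K9me3 read 100% of 41 calls and 96% of 100, against 21.9% of 32 and 21.7% of 46 for H3K4me1. Most of the H3K4me1 peak that lies wholly inside the H3K9me3 peak falls in this window.

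The window at the right-hand end of Gnasas1, where this antisense gene starts, was the deepest of the locus for H3K9me3 (chr2:174295001-174296000). H3K9me3 read 92.9% over 85 calls (run 1) and 92.2% over 244 (run 2), a depth reached by 0.0101% and 0.0135% of all windows. H3K4me1 read 0 of 14 calls and 0 of 46, which allows up to 21.4% and 6.52%. H3K27me3 read 0 of 11 calls at 20000 cells (up to 27.3%), 21.6% of 74 at 100000 and 28.4% of 81 at 250000. The H3K9me3 and H3K4me1 calls were thus at opposite ends over the same kilobase, with H3K27me3 at 100000 and 250000 cells between them. The H3K27me3 libraries differed within it. The bin chr2:174295001-174295250 read 9 of 10 calls methylated at 250000 cells and 0 of 11 at 100000. In the bin chr2:174295251-174295500 the counts were 7 of 31 and 11 of 28. No H3K4me1 or H3K27me3 peak overlaps this window.

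The same split ran through the next windows. Over chr2:174296001-174301000 the H3K9me3 levels of the windows lay between 72.7 and 97.3% in either run. In chr2:174298001-174299000 the H3K9me3 runs read 95.5% of 22 calls and 97.3% of 73, H3K4me1 read 12.5% of 24 and 8.33% of 36, and H3K27me3 at 250000 cells read 4.04% of 717. In chr2:174299001-174300000 the H3K9me3 runs read 93.6% of 47 and 87.9% of 174, H3K4me1 read 7.89% of 38 and 8.14% of 86, and H3K27me3 read 5.67% of 194, 4.95% of 1151 and 4.33% of 1641 at 20000, 100000 and 250000 cells. The lowest H3K9me3 value of the stretch was 72.7% of 66 calls, in run 2 at chr2:174297001-174298000. Run 1 read 84.4% of 32 there, and H3K4me1 read 33.3% of 15 and 15.2% of 33. H3K9me3 run 1 was lowest at chr2:174300001-174301000, with 82.7% of 75.

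Over the whole stretch where the united H3K9me3 and H3K27me3 peaks overlap, chr2:174296290-174301914, H3K9me3 read 88.7% of 204 calls and 87.3% of 535. H3K4me1, which had no peak there, read 11.6% of 138 and 8.90% of 337. H3K27me3 read 10.5% of 38 at 4000 cells, 8.03% of 598 at 20000, 7.62% of 2994 at 100000 and 7.47% of 4112 at 250000. Fragments pulled down with H3K9me3 and with H3K27me3 therefore came from the same 5625 bp with methylation near opposite ends, and the files do not say from which parental copy a call came.

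**Figure D2:**
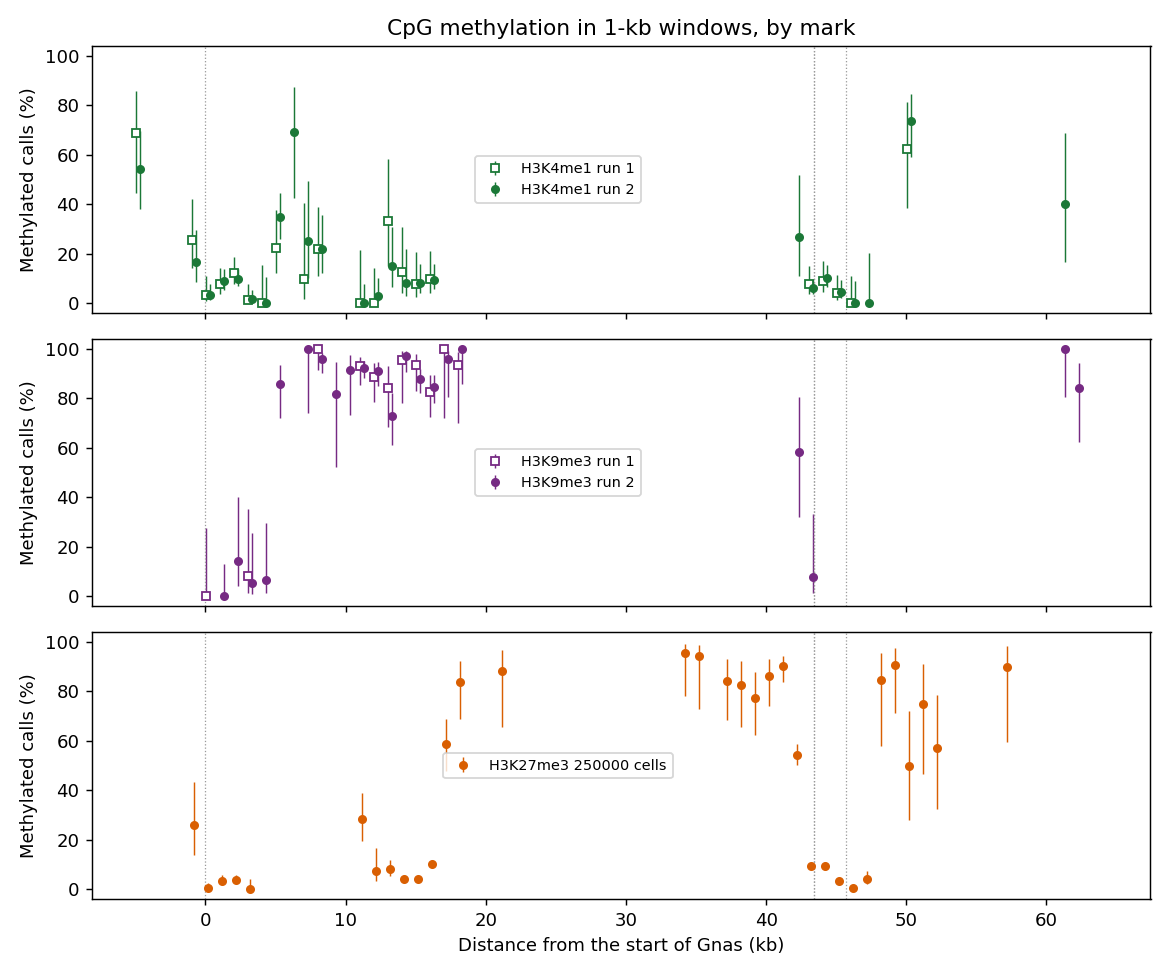
Methylated share of CpG calls (percent) in 1-kb windows with at least 10 calls, by distance from the Gnas start in kb, for the 2 H3K4me1 runs, the 2 H3K9me3 runs and the 250000-cell H3K27me3 library; bars are 95% Wilson intervals and dotted lines the RefSeq starts. H3K9me3 is at or above 72.7% between 7 and 19 kb, where H3K4me1 reads at most 33.3%. At 6 kb, also inside the broad H3K9me3 peak, H3K4me1 run 2 reads 69.2% of 13 calls.

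Set beside each other, 8 windows reached 10 calls in all 4 runs, and in 7 the H3K9me3 mean was at least 20 points above the H3K4me1 mean, where 24.5% of the 2778 windows of the genome compared in this way were. In 0 windows H3K4me1 was that much higher, against 0.936% over the genome. The rule that chose the locus used this contrast, so the count only describes it. Of the 7 windows, only chr2:174292001-174293000 overlaps an H3K4me1 peak of any list. In the others the H3K4me1 calls came from outside the peaks of that mark. The differences of those 7 windows were from 54.3 points (chr2:174297001-174298000) to 92.6 points (chr2:174295001-174296000), the median over the 8 was 79.5 points against 5.20 over all windows, and the window at chr2:174287001-174288000 differed by 5.28 points. With only CpGs called in all 4 runs, 6 windows could be read, and the differences ran from 56.7 to 94.4 points. With run 2 alone more windows had calls enough, and 11 of 16 passed the threshold. Those that did not were chr2:174285001-174286000 (-8.84 points), the windows over chr2:174286001-174289000 (3.67 to 6.67 points) and chr2:174327001-174328000 (1.61 points). Outside the broad peak, chr2:174326001-174327000 passed on 12 H3K9me3 calls and chr2:174345001-174346000 on 10 H3K4me1 calls.

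H3K27me3 differed from H3K4me1 much less. Of 16 windows, 1 passed 20 points, where 8.3% of 42714 windows were at least 20 points higher in H3K27me3 and 4.07% at least 20 points higher in H3K4me1. It was chr2:174295001-174296000, with 28.4% for H3K27me3 and 0% for H3K4me1. The median difference over the 16 was -1.40 points, against 0 over all windows. The 1 passing window was lost when at least 20 calls were asked of each run. With run 1 of H3K4me1 alone a second window, chr2:174297001-174298000, passed, at -25.3 points, and with run 2 alone chr2:174326001-174327000 (27.8 points) and chr2:174334001-174335000 (-23.8 points) did. H3K9me3 was at least 20 points above H3K27me3 in 7 of 9 windows, against 12.6% of 3997 over the genome, and H3K27me3 was that much higher in 0, against 3.8%. The differences ran from 6.94 to 92.3 points.

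Single CpGs read by all 3 marks were compared as well. At the 26 CpGs with at least 3 calls each in H3K4me1 run 2, H3K9me3 run 2 and H3K27me3 at 250000 cells, the H3K9me3 level was above the H3K4me1 level at 25 and below it at 0. It was above the H3K27me3 level at 25 and below it at 0. The pooled levels there were 82.9% for H3K9me3 (105 calls), 11.9% for H3K4me1 (101 calls) and 11.8% for H3K27me3 (507 calls). At all 249 CpGs with at least 1 call in each, H3K9me3 was above H3K4me1 at 174 and below it at 20, and above H3K27me3 at 179 and below it at 25. The 26 CpGs span chr2:174288089-174300823, and they are not replicates, since neighbouring CpGs share fragments.

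The H3K27me3 level rose sharply inside the right-hand part of the middle block, which ends at chr2:174301914, and H3K9me3 showed no such step. At 250000 cells the H3K27me3 level was 10.2% of 1325 calls in chr2:174300001-174301000, 58.75% of 80 in the next kilobase and 83.8% of 37 in the one after. At 100000 cells the same windows read 11.3% of 946, 63.3% of 30 and 83.8% of 37. In 250-bp bins the step came between chr2:174300751-174301000, with 8.94% of 358 calls, and chr2:174301001-174301250, with 44.9% of 49. H3K9me3 run 2 read 84.6%, 96% and 100% over the same 3 windows, with 162, 25 and 23 calls. H3K4me1 had 1 call in run 1 and 1 in run 2 in the middle window of the 3, so its level there could not be read.

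At exon 1A the pattern of marks was another one. The window chr2:174327001-174328000 held 4732 calls of the 250000-cell H3K27me3 library, 59.9 per CpG, and only 519 windows of the genome held more. It was also the deepest window of the locus in the libraries from 4000, 20000 and 100000 cells. The levels were 21.2% of 33 calls at 4000 cells, 9.80% of 510 at 20000, 8.81% of 2747 at 100000 and 9.26% of 4732 at 250000. H3K4me1 read 7.78% of 90 and 6.09% of 230. H3K9me3 had only 7 calls in run 1 and 13 in run 2, with 1 methylated in each, and no H3K9me3 peak stood there. All 79 CpGs of the window had at least 21 calls at 250000 cells. Of them 70 were under 20%, the median was 5%, and the highest was 72.6%.

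The low level at exon 1A rose to the left by steps. In 250-bp bins of the 250000-cell library it was 7.94% of 1310 calls in chr2:174327251-174327500, 27.5% of 694 in chr2:174327001-174327250, 45.5% of 308 in chr2:174326751-174327000 and 63.5% of 85 in chr2:174326501-174326750. The 100000-cell library read 8.31%, 26.3%, 47.7% and 69.0% in the same bins. Farther left, inside the same H3K27me3 peak, the window chr2:174325001-174326000 read 90.2% of 132 calls at 250000 cells, 88.7% of 71 at 100000 and 92.9% of 14 at 20000. The peak thus held methylated and unmethylated calls side by side: of its 258 CpGs with at least 10 calls, 214 were under 20%, 33 between 20 and 80% and 11 over 80%. This left part overlaps Gm30189, an RNA gene without a protein product (chr2:174320906-174327387).

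The Gsα start was read as nearly unmethylated. In chr2:174330001-174331000, with 124 CpGs, H3K27me3 read 0 of 90 calls at 20000 cells (up to 3.33%), 0.410% of 488 at 100000 and 0.415% of 723 at 250000. H3K4me1 read 0 of 31 and 0 of 38, which allows up to 9.68% and 7.89%, and H3K9me3 had 0 calls. In the printed Gsα promoter H3K27me3 at 250000 cells read 0.987% of 304 calls, and in that of exon 1A 5.73% of 1465. H3K4me1 had 0 calls in the printed Gsα promoter in run 1 and read 0 of 9 in run 2, which allows up to 33.3%. At 250000 cells the window chr2:174331001-174332000 read 4.08% of 245 calls, most of them in its first 250-bp bin (1.70% of 235). In its last bin, chr2:174331751-174332000, 4 of 4 calls were methylated at 250000 cells and 12 of 13 at 100000. The next window read 84.6% of 13 calls at 250000 cells.

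**Figure D3:**
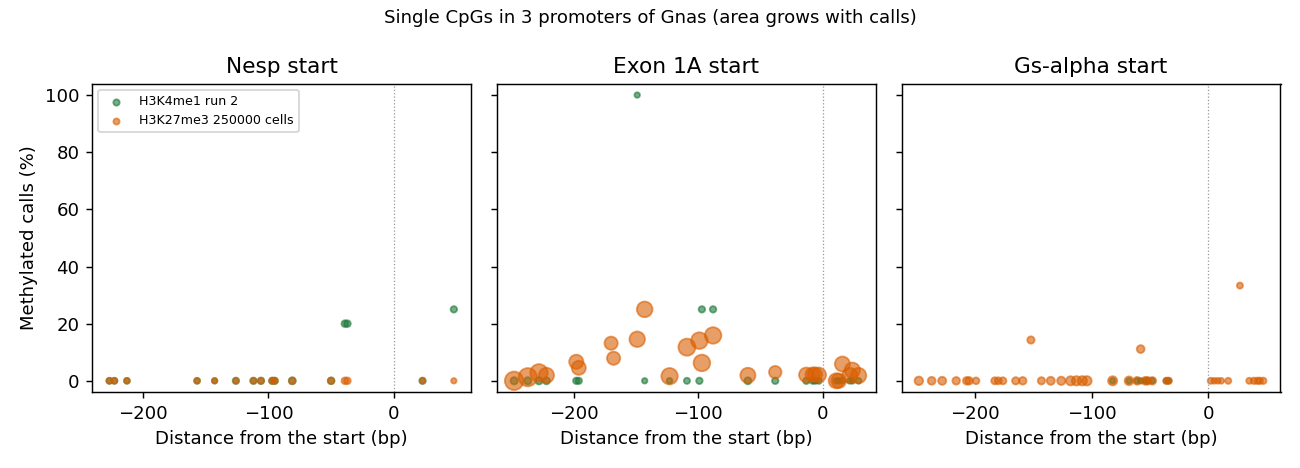
Methylated share of calls (percent) at single CpGs of the 3 printed promoters, by distance from the start in bp, for H3K4me1 run 2 and the 250000-cell H3K27me3 library; the area of a point grows with its calls. Most points lie at 0 at the Nesp and Gsα starts, where the few higher ones rest on 3 to 9 calls, and the exon 1A promoter has a group of more deeply read H3K27me3 points above 10% to the left of its start.

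**Figure D4:**
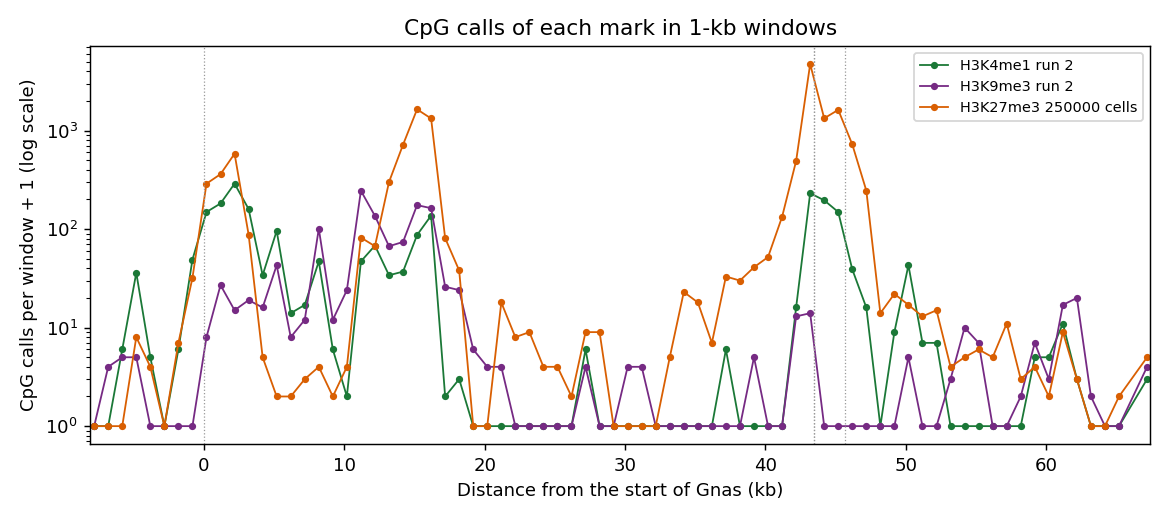
CpG calls plus 1 (log scale) in each 1-kb window, by distance from the Gnas start in kb, for H3K4me1 run 2, H3K9me3 run 2 and H3K27me3 at 250000 cells, with dotted lines at the RefSeq starts. H3K27me3 stands in 3 tall blocks, the tallest at exon 1A, H3K9me3 is tallest between 5 and 19 kb, and few calls fall between 20 and 33 kb.

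Outside these blocks calls were few and mostly methylated. The H3K4me1 window holding the flanking peak on the left, chr2:174279001-174280000, read 68.75% over 16 calls (run 1) and 54.3% over 35 (run 2), and that on the right, chr2:174334001-174335000, read 62.5% of 16 and 73.8% of 42. The narrow peaks themselves read 60% of 10 calls and 42.1% of 19 on the left, and 62.5% of 16 and 76.3% of 38 on the right, above the H3K4me1 levels at Nesp and exon 1A. The window at the left-hand end of Gnasas1, chr2:174281001-174282000, and that at the right-hand end of Gnas, chr2:174346001-174347000, had too few calls in most libraries. In the latter H3K9me3 run 2 read 84.2% of 19 calls.

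The 4 H3K27me3 libraries allow the only test at the locus that the choice of members did not use. A two-sided Fisher's exact test on the methylated and unmethylated calls of each 1-kb window, with Benjamini-Hochberg adjustment over all windows of the genome, compares these single libraries and not cell numbers. Between 250000 and 100000 cells, 0 of 26 windows of the locus had an adjusted p under 0.05, where 0.0345% of 165178 windows did. At an unadjusted p under 0.05 there were 3. The smallest was p = 0.0005735 by Fisher's exact test at chr2:174331001-174332000 (4.08% of 245 calls at 250000 cells against 14.3% of 140 at 100000), with an adjusted p of 0.2216. The first 250-bp bin of that window read 1.70% of 235 calls against 3.42% of 117, and its last 4 of 4 against 12 of 13. The part of unlike CpGs called in that difference was not tested. Between 250000 and 20000 cells, 0 of 17 windows passed, against 0.527% of 55407, and 0 had an unadjusted p under 0.05. The median absolute difference per window was 2.94 points to 100000 cells (5.65 over all windows) and 2.57 points to 20000 cells (5.08). Depth and level were not matched between the locus and all windows, so these medians do not say that its libraries were more alike. Windows with few calls could hide differences of many points: at chr2:174295001-174296000 the 250000-cell and 20000-cell libraries differed by 28.4 points on 81 and 11 calls. The 4000-cell library had 2 windows with at least 10 calls and was not tested.

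**Figure D5:**
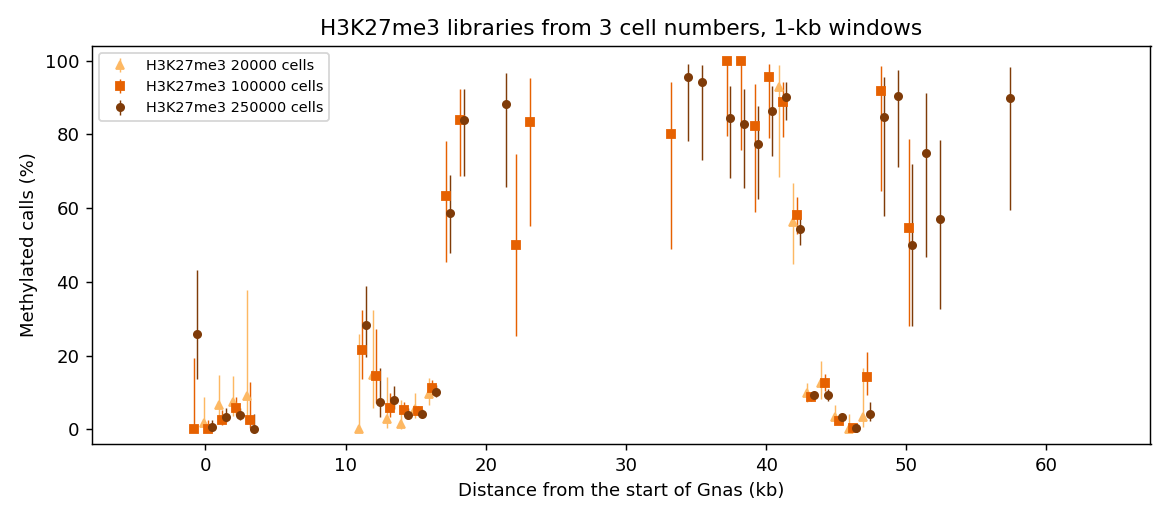
Methylated share of calls (percent) in 1-kb windows with at least 10 calls, by distance from the Gnas start in kb, for the H3K27me3 libraries from 20000, 100000 and 250000 cells; bars are 95% Wilson intervals. The libraries from 100000 and 250000 cells rise at 17 kb, where that from 20000 cells has too few calls, all 3 fall at 42 kb, and no window passed the adjusted test.

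Other H3K9me3 peaks were set beside the broad one at Gnas, as a description, since its levels were used to choose the locus. Of 21384 united H3K9me3 peaks on chromosomes 1 to 19 and X, 1349 overlapped an H3K4me1 peak, 259 an H3K27me3 peak and 22 (0.103%) both, the broad Gnas peak among them. At 209 H3K9me3 peaks that reached 20 calls in H3K4me1 run 2, H3K9me3 run 2 and H3K27me3 at 250000 cells alike, 4 (1.91%) read at least 80% in H3K9me3 and under 20% in both other marks. They were the peaks at Gnas, at Peg3 and Usp29, at Kcnq1 and Kcnq1ot1, and at Zfp30, and this pick was made with the values in view. Peg3 and Kcnq1ot1 are themselves imprinted genes with a region methylated in the egg. Of 14 listed genes at such regions other than Gnas, only 4 had a window deep enough in all 4 runs to compare H3K9me3 with H3K4me1. Of these, Kcnq1ot1, Airn and Zrsr1 had at least 1 window 20 points higher in H3K9me3 (1 of 1, 1 of 2 and 2 of 2 windows), and Inpp5f had 0 of 1. Over all genes with a compared window the share was 21.6% of 2352.

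The genes whose 7 levels over the gene body with 5 kb lay nearest to those of the locus, of 1914 genes that reached 50 calls in all 7 deeper libraries, were Bmp6 (a distance of 2.55 points over the 7 levels), Rgs20 (4.17), Efna5 (4.82), Tmem178b (5.27) and Kctd1 (6.14). Bmp6 read 15.1% and 12.9% in H3K4me1, 84.5% and 82.95% in H3K9me3 and 12.6% in H3K27me3 at 250000 cells. The H3K9me3 level there rested on 58 and 176 calls. These levels sum calls over whole genes, so they do not say that the marks were read on the same CpGs. The neighbours of the locus had another pattern. On the left, Gm10714, Mir296 and Mir298 read from 35.0 to 51.4% in H3K4me1, and on the right Nelfcd, Ctsz and Rpl30-ps5 read from 39.1 to 55.8%, all above the 13.9% and 13.2% of the locus. In H3K27me3 at 250000 cells these genes read from 42.1% (Nelfcd, 126 calls) to 76.9% (Gm10714, 312 calls), against 11.4% of 15276 calls at the locus, or 22.6% as the unweighted mean over its CpGs. Mir296 (chr2:174267047-174267125) and Mir298 (chr2:174267504-174267585) are not separate readings, since their stretches with 5 kb mostly coincide. Their H3K27me3 levels rested on 28 and 30 calls.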

How the data were processed

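The deposited table gives, per CpG and bisulfite library, whole-number counts of methylated calls and of all calls, as the authors left them and without normalization; strands are merged. The deposited peak lists hold positions and no score. Per the submitters' processing notes the build was mm10 and the tools were cutadapt 1.12, Bismark 0.23.0, Bowtie2 2.3.0, HOMER 4.10.3 and bedtools 2.29.2, and how duplicate reads were treated is not given in the sources used here. All 407620 CpGs of the RefSeq promoter table (GRCm38.p6) were present in the CpG table, a check of the build.

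A level is methylated over all calls, in percent. Windows of 1 kb needed at least 10 calls in each library compared; runs of a mark were averaged; 20 points was the threshold. Levels of 0 are given with the limit that 3 counts allow. Python 3.11.15, NumPy 2.4.6, SciPy 1.17.1 and numba 0.67.0 were used, and the Fisher's exact test was tested on simulated data. Peaks overlapped when they shared 1 bp. Named were both genes, their 3 neighbours on each side, the 5 genes with the nearest levels, listed imprinted genes, the deepest windows, windows at gene ends, windows read in all 4 runs and every peak; the other windows, the 250-bp bins, the single-run calls and the H3K9me3 peaks most like that of Gnas were picked after their values were seen. The members, lists and tests were chosen with earlier results of these data known. All value columns were used (0 left out).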

Additional observations from a re-analysis of the deposited data

How the results depend on the processing

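Of 92 recomputed values, 65 stayed within their limits and 27 moved. Whether a direction changed was not scored. The count of windows higher in H3K9me3 than in H3K4me1 (7) moved only to 11, with run 2 alone, and lay between 7 and 9 without any 1 run. The count of windows where H3K27me3 and H3K4me1 differed (1) became 2 at a minimum of 5 calls, 0 at a minimum of 20 calls, 0 in 500-bp windows, 0 at a threshold of 40 points and 3 with run 2 only, and it lay between 2 and 3 without 1 H3K4me1 run. The count of windows higher in H3K9me3 than in H3K27me3 (7) became 11 in 500-bp and 4 in 2000-bp windows. Windows differing between 250000 and 100000 cells numbered 3 at an unadjusted p. With only CpGs of at least 5 calls the level of the locus was 9.26% and 9.60% for H3K4me1, 100% and 89.2% for H3K9me3 (run 1, then run 2), and 11.1%, 10.3% and 10.1% in H3K27me3 from 20000, 100000 and 250000 cells; the 4000-cell library had no such CpG and no value. As an unweighted mean over CpGs it was 15.2% in H3K4me1 run 2, 79.96% and 76.6% for H3K9me3, and 14.6%, 19.4% and 22.6% in the same H3K27me3 libraries. With a flank of 10 kb it was 15.4% in H3K4me1 run 2. With only the peaks at or above the median width of each list, 4888 and 3704 bases remained for the H3K4me1 runs. The cause of these moves was not tested. No paired analysis was possible because the tested H3K27me3 libraries share fewer than 2 replicate numbers, and the comparisons of H3K4me1 with H3K9me3, which share run numbers, come from no test.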
